A study of Homo sapiens with 4 samples.

Results

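AFF2 and the genes that work with its family, the AFF scaffolds AFF1, AFF3 and AFF4, the elongation factors ELL and ELL2 and the YEATS-domain proteins MLLT1 and MLLT3, were read from RNA of WT and THUMPD1 KO cells. They are 8 of the 18917 genes of the count table, taken by gene symbol, and the group was chosen on a measured value, the rise of AFF2 in KO against WT. For AFF2 the difference is therefore a description with no test. The other 7 genes were listed for their family or complex, with earlier results of this comparison known.

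The samples were 2 libraries from WT and 2 from THUMPD1 KO cells of the HEK293 line (HEK-293T in the paper), an immortalized human embryonic kidney line, all grown in DMEM with serum and 2 mM glutamine. THUMPD1 is the adapter through which NAT10 acetylates transfer RNA, and the comparison asks how transcript levels differ when it is lost. The KO cells were made with CRISPR-Cas9 and guides to the coding sequence of THUMPD1, and candidate clones were sorted as single cells, so genotype and clone cannot be told apart. Nothing in the labels says that the 2 libraries of a genotype came from separate cultures, so p-values measure only the spread between these libraries.

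Library totals ran from 7875722 to 11362363 counts. THUMPD1 itself had 356 and 468 counts in WT and 71 and 58 in KO libraries, lower in both KO libraries as labelled. All 15 markers of embryonic kidney and of this line had more than 3 counts in at least 1 library, with a summed level of 918 to 941 CPM in WT and 781 to 834 CPM in KO libraries (CPM are counts for every 1000000 of a library, after TMM scaling). Markers of other cells summed to at most 9.18 CPM for blood, 27.4 CPM for fibroblasts and 0.345 CPM for liver and for endothelium. The lower summed kidney and blood levels in KO went with the comparison, and their part in the results was not tested. CD3E, HBB, HBG1, ALB, APOA1, COL1A2, PECAM1 and CDH5 were at or below 3 counts in all 4 libraries.

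The AFF proteins are long, flexible scaffolds. AFF1 or AFF4 holds together the super elongation complex, in which P-TEFb (the kinase CDK9 with a cyclin T) is joined to ELL or ELL2 and to MLLT1 or MLLT3, and this complex releases paused RNA polymerase II into productive elongation. AFF2 and AFF3 are less widely expressed relatives that can form complexes of similar makeup. AFF2, also called FMR2, is the gene silenced in the fragile site FRAXE on the X chromosome, a cause of intellectual disability. AFF1, AFF3, AFF4, ELL, MLLT1 and MLLT3 are all known as fusion partners of KMT2A in leukemia.

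AFF2 (ENSG00000155966.14, chromosome X) was read 12 times in the first and 25 times in the second WT library, against 210 and 128 times in the KO libraries. The exact Poisson intervals at 95%, which cover counting error only, were 6.2 to 21.0, 16.2 to 36.9, 183 to 240 and 107 to 152 counts in the same order. Both WT libraries were low but above the floor of 3 counts, which was worth 0.259 to 0.391 CPM, and the KO libraries differed between themselves beyond counting error.
On the CPM scale AFF2 stood at 1.56 and 2.27 in WT and at 18.1 and 12.0 in KO libraries, or 1.92 ± 0.502 against 15.1 ± 4.32 CPM (SD, n = 2 per genotype). The ratio of the means was 7.85, and the log2 fold change fitted by edgeR was 2.93 (standard error 0.31). The lower KO library was above the higher WT library. Leaving out 1 library at a time gave 2.61 to 3.26. In bulk RNA, more cells that express AFF2 and more AFF2 RNA per cell cannot be told apart.

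**Figure D1:**
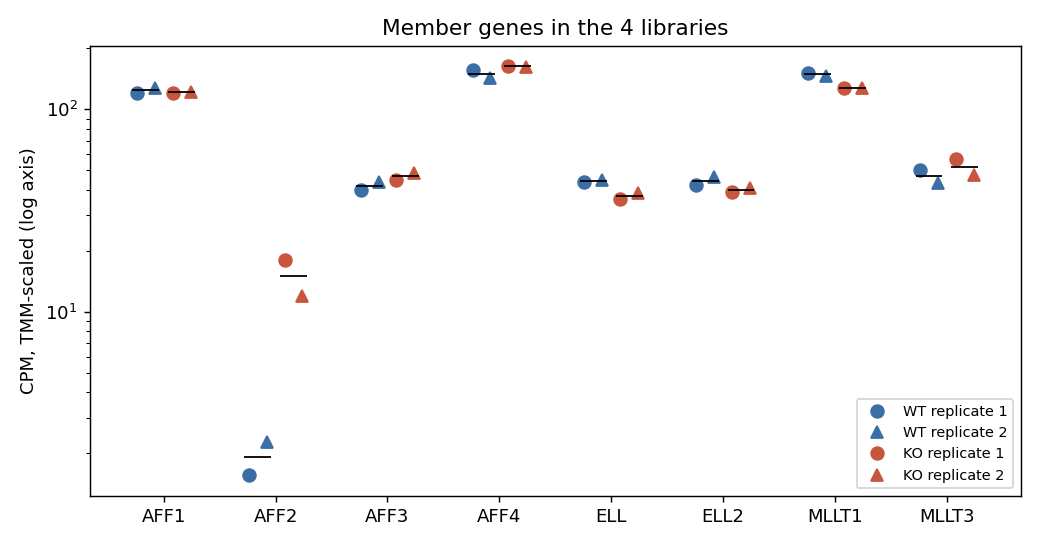
Levels of the 8 genes in CPM on a log axis, WT libraries in blue and KO libraries in red, circles for replicate 1 and triangles for replicate 2, with black lines at the means. AFF2 lies at 1.56 and 2.27 CPM in WT and at 18.1 and 12.0 CPM in KO libraries, while each of the other genes keeps its 4 libraries close together.

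The other scaffolds were far more abundant than AFF2 in both genotypes and differed little. AFF4, the main scaffold of the super elongation complex (ENSG00000072364.13, chromosome 5), stood at 157 and 143 CPM in WT and at 163 and 162 CPM in KO libraries. Its log2 fold change was 0.12 (standard error 0.07, edgeR adjusted p = 0.247), so it did not pass the threshold of 0.05, although both KO libraries were above both WT libraries. With library size alone as the scaling, AFF4 was called higher, at 0.20 (edgeR adjusted p = 0.0344), and that scaling moved the median of all genes from 0.01 to 0.09.
AFF1, the founding member of the family (ENSG00000172493.23, chromosome 4), was at 121 and 127 CPM in WT and 121 and 122 CPM in KO libraries. The genotypes overlapped, and the log2 fold change was -0.03 (standard error 0.07, edgeR adjusted p = 0.789). That sign turned with library size alone (0.05) and with limma-voom, which here also used quantile normalization (0.02).
AFF3, known for its expression in lymphoid cells (ENSG00000144218.21, chromosome 2), was at 40.1 and 43.8 CPM in WT and 44.6 and 48.7 CPM in KO libraries. The KO libraries were just above the WT libraries, and the log2 fold change of 0.15 (standard error 0.11, edgeR adjusted p = 0.377) did not pass the threshold.

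Levels of different genes were compared per length, as RPKM on the longest transcript of each gene. On that scale AFF2 was the lowest of the 8 genes in every library, at 0.114 and 0.165 RPKM in WT and 1.32 and 0.873 RPKM in KO libraries. AFF3 came next, at 4.17 ± 0.259 RPKM in WT and 4.63 ± 0.286 RPKM in KO cells (SD, n = 2 per genotype), so the AFF2 level in KO cells was still below that of every other gene of the group. The order in WT, from the top, was MLLT1 (33.0 RPKM), AFF4 (15.7), AFF1 (12.9), ELL (10.8), ELL2 (7.61), MLLT3 (6.97), AFF3 (4.17) and AFF2 (0.140). Of the neighbours in that order, ELL2 at 7.22 and 7.99 RPKM and MLLT3 at 7.48 and 6.46 RPKM overlapped. In KO cells MLLT3 (7.75 ± 1.04 RPKM) had the higher mean and ELL2 (6.85 ± 0.197 RPKM) the lower.
Together the 4 AFF genes summed to 33.2 and 32.7 RPKM in WT and to 35.4 RPKM in each KO library. AFF2 made up 0.343% and 0.505% of that sum in WT and 3.72% and 2.46% in KO libraries. AFF4 held 45.8% to 49.6% and AFF1 35.4% to 40.4% over the 4 libraries. AFF4 and AFF1 thus made up most of the AFF transcripts in both genotypes.

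**Figure D2:**
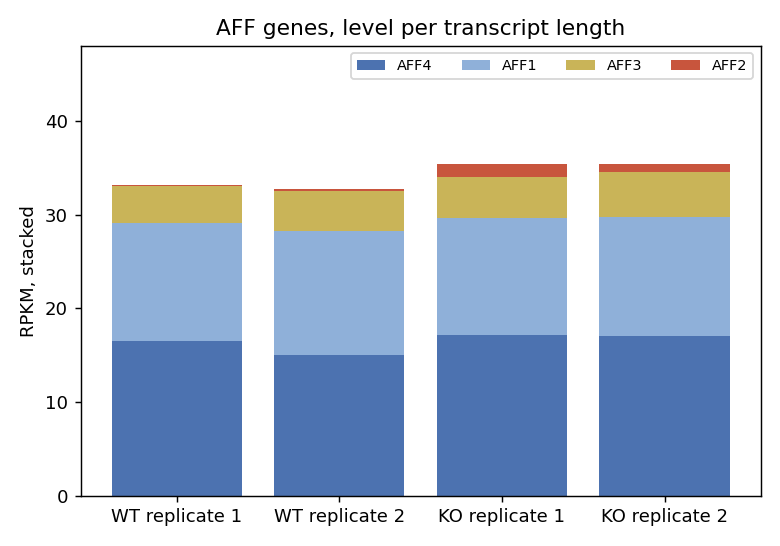
Stacked RPKM of the 4 AFF genes in each library, on the length of the longest transcript. AFF2, in red, is a thin layer of 0.114 and 0.165 RPKM in WT and of 1.32 and 0.873 RPKM in KO libraries, on top of AFF4, AFF1 and AFF3.

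The partners that the scaffolds bind went in both directions, and 1 of them passed the test. MLLT1, or ENL, a reader of acetylated histones that anchors the complex to chromatin (ENSG00000130382.9, chromosome 19), was at 152 and 146 CPM in WT and 128 and 127 CPM in KO libraries. Both KO libraries were below both WT libraries, and MLLT1 fell by 0.22 on the log2 scale (standard error 0.07, edgeR adjusted p = 0.0246). The call was lost without WT replicate 1 (-0.20), without KO replicate 1 (-0.22) and without KO replicate 2 (-0.22), and also with DESeq2, limma-voom and library size alone. Over the 11 alternatives its adjusted p ran from 0.00949 to 0.162, with the sign negative in all of them.
MLLT3, or AF9, its close relative (ENSG00000171843.17, chromosome 9), was at 50.3 and 43.5 CPM in WT and 57.0 and 47.2 CPM in KO libraries. These overlapped, and the log2 fold change was 0.16 (standard error 0.11, edgeR adjusted p = 0.345).

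ELL, which raises the rate at which RNA polymerase II elongates (ENSG00000105656.13, chromosome 19), was at 43.7 and 44.6 CPM in WT and 36.1 and 38.7 CPM in KO libraries. It lay lower in both KO libraries, but its log2 fold change of -0.24 (standard error 0.11, edgeR adjusted p = 0.140) did not pass the threshold under the main setting or any alternative. ELL2, its paralog, best known from antibody secretion by plasma cells (ENSG00000118985.16, chromosome 5), was at 42.1 and 46.5 CPM in WT and 39.1 and 40.7 CPM in KO libraries. The log2 fold change was -0.16 (standard error 0.11, edgeR adjusted p = 0.355), with the KO libraries narrowly below the WT libraries.

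All 8 genes passed the filter on low counts. Of the 7 other than AFF2, 1 was called lower and 0 higher, and 6 were not called. By that rule 12.1% of the 13128 tested genes were called lower and 8.79% higher, so the share among these few genes was near the background, and nothing is read from it. The libraries of the genotypes did not overlap in 5 of the 7 genes other than AFF2, against 60.3% of all tested genes, and nothing is read from that either. With 2 libraries against 2, exact permutation of one gene's values gives a two-sided p of 0.333 at the least.

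**Figure D3:**
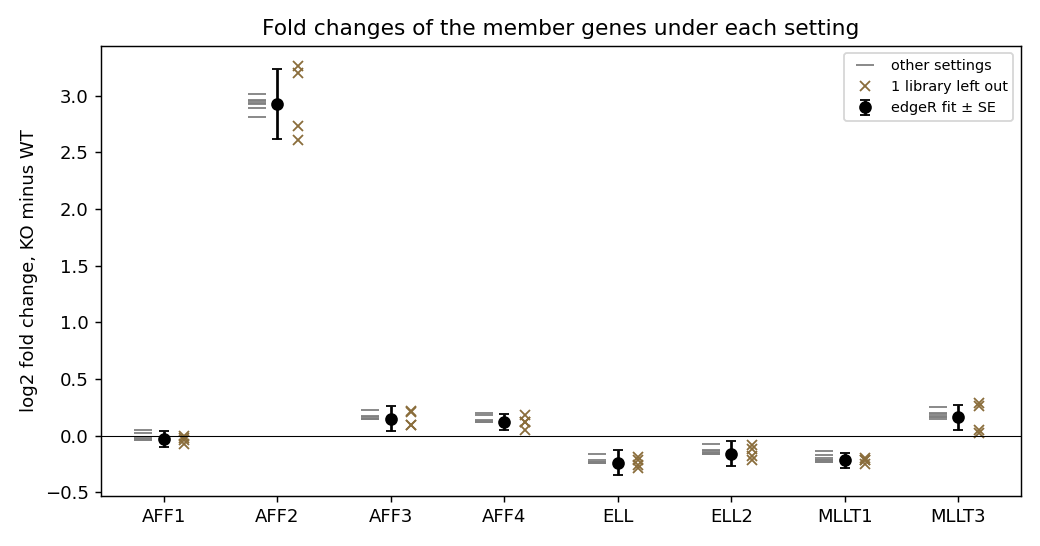
Log2 fold change of KO minus WT for the 8 genes, with the edgeR fit and its standard error in black, the other settings as grey dashes and the fits without 1 library as brown crosses. AFF2 stays between 2.61 and 3.26, and the other genes lie between -0.29 and 0.29.

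The genes of the group differ in features that their choice did not use, and some of these went with the comparison in all genes. AFF2 and AFF3 are very long genes, spanning 500 and 647 kb in GENCODE 44, and MLLT3 and AFF1 span 281 and 206 kb. For the 474 tested genes of at least 400 kb the median log2 fold change was 0.21, and for the 1307 of at least 200 kb it was 0.13, against 0.01 for all placed genes. Beside these medians AFF3 (0.15) and AFF1 (-0.03) lay below and MLLT3 (0.16) slightly above those of genes as long as they are. AFF2, chosen for its rise, is not compared with them.
ELL and MLLT1 have the coding sequences richest in GC, 63.9% and 62.9%, against 44.7% to 55.6% in the other 6 genes. For the 3092 tested genes with a coding GC content of at least 60% the median was -0.15, and 21.6% of them were called lower, while the 3131 genes under 45% had a median of 0.13. The values of ELL and MLLT1, -0.24 and -0.22, had the sign of that median and lay somewhat below it. The part of GC content and gene length in these differences was not tested.

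The leucine codons UUA, UUG, CUU and CUA are a set that the study, which followed ribosomes codon by codon, compared with other leucine codons. These 4 codons made up 46.5% of the leucine codons of AFF2 (47 of 101), 39 of the 65 in AFF4, 57.7% in AFF1 and 36.9% in AFF3. MLLT3 and ELL2 had 60.5% and 51.9%, while ELL (16.1%) and MLLT1 (11.8%, 4 of 34) had few. Over 12572 tested genes with at least 10 leucine codons the median was 41.1%, and 56.8% of these genes lay below AFF2 but 7.23% below MLLT1. AFF2 was thus close to the median in its leucine codons, and 73.4% of the genes lay below AFF4. To show what such a stretch looks like, the first 10 codons in a row that hold the most of these codons are printed for AFF2 (codons 250 to 259 of ENST00000370460.7) and AFF4 (codons 377 to 386 of ENST00000265343.10), with the 4 codons in capitals and T in place of U.
AFF2: gggtctcccCTAgtggcttcctctTTATTA
AFF4: aaatctatgTTAaaagatgacTTAaaaCTA
Each stretch holds 3 of the codons. The sequences are those of GENCODE 44 transcripts, and RNA counts do not measure how they were translated.

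The genes that work beside the group were followed in 5 lists, drawn up from the biology of elongation with earlier results of the comparison known. Of their 57 genes 55 were tested, of which 3 were called higher and 13 lower, and 39 were not called, where 8.79% of all tested genes were called higher and 12.1% lower with a median of 0.01. The libraries of the genotypes did not overlap in 33 of the 55, against 60.3% of all tested genes. Calls made with so few libraries were fragile. Of the 16 called genes, 3 (PAF1, TCEB2 and HSPA1B) kept the call under all 11 alternatives, and 11 lost it without KO replicate 1. Library size alone ended the calls of HEXIM1, TCEB1, SUPT16H, CDK12, DOT1L, MLLT6 and MYC, and DESeq2 those of HEXIM1, TCEB1, SUPT16H, DOT1L and MYC. With limma-voom HEXIM1, SUPT16H, DOT1L, MLLT6 and MYC were not called.

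P-TEFb and its 7SK control, the kinase that AFF scaffolds carry and the RNA-protein complex that holds it inactive, gave 0 higher and 1 lower call in 8 genes, with a median log2 fold change of -0.17. The count was near the background of 12.1% called lower. HEXIM1, the inhibitor of P-TEFb, went from 125 ± 6.23 to 106 ± 1.17 CPM (SD, n = 2 per genotype) and fell by 0.23 on the log2 scale (edgeR adjusted p = 0.0309). That call was lost without WT replicate 1 (-0.18), without KO replicate 1 (-0.21) or without KO replicate 2 (-0.24), and under 4 other settings. CDK9, named here after its values were seen because it is the kinase itself, was at 47.2 and 47.9 CPM in WT and 42.0 and 38.7 CPM in KO libraries, a log2 fold change of -0.24 that did not pass (edgeR adjusted p = 0.137). CCNT1, its cyclin, was at 0.04 and MEPCE, which caps 7SK RNA, at -0.19, neither of them called.

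Of the 7 other partners of ELL, the EAF proteins and the little elongation complex among them, 0 were called, with a median of 0.00. EAF1, which binds ELL and ELL2, was at -0.12, and the scaffolds of the little elongation complex ICE1 (KIAA0947 in the table) and ICE2 (NARG2) at 0.00 and 0.13. ELL3, the third ELL gene, was chosen after its values were seen. It had 35 and 47 counts in WT and 25 and 22 in KO libraries, or 4.42 ± 0.203 against 2.11 ± 0.0662 CPM (SD, n = 2 per genotype). At -1.06 on the log2 scale (standard error 0.43, edgeR adjusted p = 0.0815) it did not pass, and it was called only where at least 10 counts in every library were required.

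Pausing and elongation factors gave 0 higher and 7 lower calls in 22 genes, with a median of -0.11, beside 8.79% higher and 12.1% lower over all tested genes. Of the PAF1 complex, which travels with elongating polymerase and to which MLLT1 and MLLT3 can bind, PAF1 was at 140 and 142 CPM in WT and 105 and 103 CPM in KO libraries. It fell by 0.43 on the log2 scale (edgeR adjusted p = 0.000108), and its groups were far apart. RTF1, associated with the same complex, went from 116 ± 5.67 to 91.4 ± 5.65 CPM (SD, n = 2 per genotype) and fell by 0.34, a call lost without KO replicate 1 (-0.27). The other measured subunits CTR9, CDC73, LEO1 and WDR61 were not called and lay between -0.11 and 0.12.
SUPT5H, the larger DSIF subunit, a target of CDK9, fell by 0.31 from 228 ± 17.0 to 184 ± 23.1 CPM (SD, n = 2 per genotype). CDK12, a kinase of elongating polymerase, fell by 0.25. SUPT16H, a subunit of the histone chaperone FACT, fell by 0.23. Without KO replicate 1 these were at -0.19, -0.19 and -0.21 and no longer called, and SUPT16H was not called without WT replicate 2 either (-0.11). Of the elongin subunits, TCEB2 (elongin B) fell by 0.32 and TCEB1 (elongin C) by 0.30, the latter not called without KO replicate 1 (-0.17). TCEB2 lies on chromosome 16, where the median over 573 tested genes was -0.44. SUPT6H (-0.08), SSRP1 (-0.11) and CCNK (-0.17) were not called.

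KMT2A, its cofactors, the methyltransferase DOT1L, MLLT6, MLLT10, CBX8 and further YEATS proteins gave 2 higher and 3 lower calls in 9 genes. Their median was -0.07, and the background the same 8.79% and 12.1%. KMT2A, the histone methyltransferase to which several of the group are fused in leukemia, was at 192 and 192 CPM in WT and 223 and 222 CPM in KO libraries. It rose by 0.21 on the log2 scale (edgeR adjusted p = 0.0175), and was not called without WT replicate 2 (0.21), without KO replicate 1 (0.21) or without KO replicate 2 (0.22). PSIP1, the chromatin tether of KMT2A, rose by 0.24 from 353 ± 9.97 to 418 ± 21.1 CPM (SD, n = 2 per genotype), a call lost without KO replicate 1 (0.19).
The lower calls were of DOT1L, which MLLT1 and MLLT3 bind (-0.21, edgeR adjusted p = 0.0459), MLLT6 (-0.24, edgeR adjusted p = 0.0160) and CBX8, a Polycomb protein that binds MLLT1 and MLLT3 (-0.74, edgeR adjusted p = 0.00509). CBX8 was at 18.1 and 19.6 CPM in WT and 10.3 and 12.4 CPM in KO libraries, and was at -0.61 and not called without KO replicate 1. DOT1L was not called without WT replicate 1 (-0.17) or KO replicate 1 (-0.14), nor MLLT6 without WT replicate 1 (-0.22) or KO replicate 2 (-0.21). MEN1 (-0.12), MLLT10 (-0.07) and YEATS2 (0.09) were not called.

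Rapidly induced genes, a class at which the super elongation complex is known to act, gave 1 higher and 2 lower calls among the 9 of 11 that could be tested, with a median of -0.08, again beside 8.79% and 12.1% of all tested genes. EGR1, an immediate early transcription factor, was at 10.2 and 7.27 CPM in WT and 15.8 and 16.4 CPM in KO libraries and rose by 0.91 on the log2 scale (edgeR adjusted p = 0.00303). Without WT replicate 2 it was at 0.66 and not called. HSPA1B, a heat shock chaperone, was at 73.0 and 80.5 CPM in WT and 35.7 and 39.1 CPM in KO libraries and fell by 1.04 (edgeR adjusted p = 5.03e-08). Its near-identical copy HSPA1A had 3 to 8 counts a library, and how reads were divided between them is uncertain. MYC fell by 0.20 (edgeR adjusted p = 0.0350), a call lost without WT replicate 2 (-0.13), KO replicate 1 (-0.19) or KO replicate 2 (-0.20). JUN (-0.09), IER2 (0.06) and DUSP1 (-0.08) were not called.

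**Figure D4:**
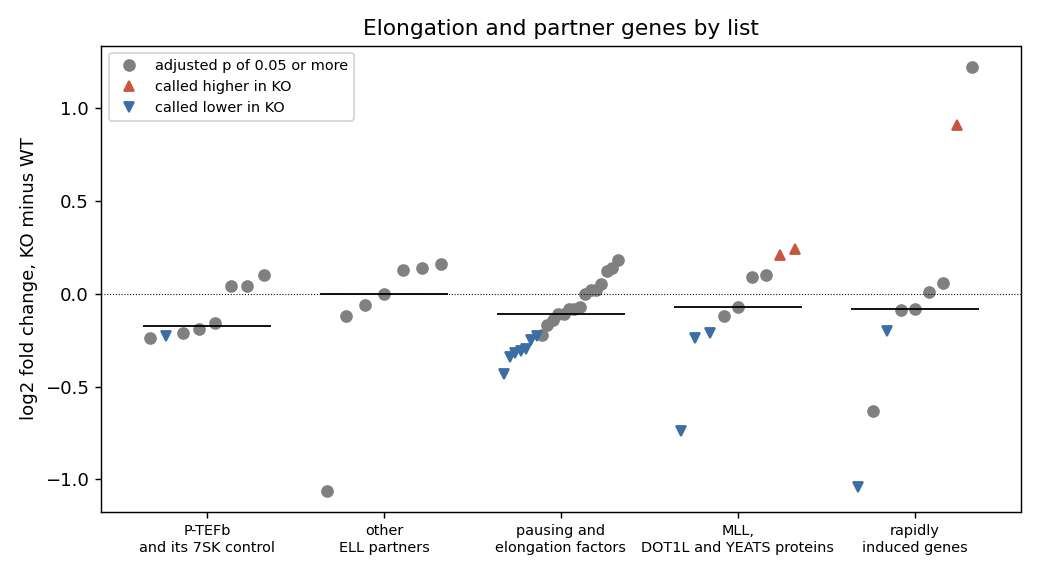
Log2 fold change of KO minus WT for the 55 tested genes of the 5 lists, each point a gene, with triangles for genes called higher (red) or lower (blue) and grey circles for the rest. Black lines are the list medians, which lie between -0.17 and 0.00. The 22 pausing and elongation factors, the largest list, hold 7 of the 13 lower calls, where 12.1% of all tested genes were called lower.

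The genes next to AFF2 on chromosome X are described here. AFF2 was chosen for its rise, so most genes would lie below it, and nothing is read from that difference. FMR1, the gene of fragile X syndrome and the nearest tested neighbour on 1 side, 549 kb away in GENCODE 44, was at 212 and 201 CPM in WT and 218 and 208 CPM in KO libraries. These overlapped, and the log2 fold change was 0.05 (standard error 0.06, edgeR adjusted p = 0.633). IDS, a lysosomal sulfatase and the nearest tested gene on the other side, 476 kb away, was at -0.10 (standard error 0.08, edgeR adjusted p = 0.384), with 108 and 103 CPM in WT and 103 and 92.9 CPM in KO libraries.
Of the 10 nearest tested genes, 5 on each side, 1 was called higher and 2 lower, where 8.79% and 12.1% of all tested genes were. CDR1 was the higher one, at 0.54 (edgeR adjusted p = 5.96e-05), and FGF13 (-0.86) and LDOC1 (-0.36) the lower ones, the nearest of them 7320 kb from AFF2. Reads of CDR1 and of its antisense transcript cannot be told apart here. FGF13 was not called without KO replicate 1 (-0.82), nor LDOC1 without WT replicate 1 (-0.29), KO replicate 1 (-0.38) or KO replicate 2 (-0.35), nor with library size alone or DESeq2. CXorf40A, TMEM185A, CXorf40B and MAMLD1, on the side of IDS, lay between -0.06 and 0.22 and were not called, except CXorf40B with library size alone (0.30). Over the 445 tested genes of chromosome X the median was 0.03, with 55 called higher and 51 lower.

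**Figure D5:**
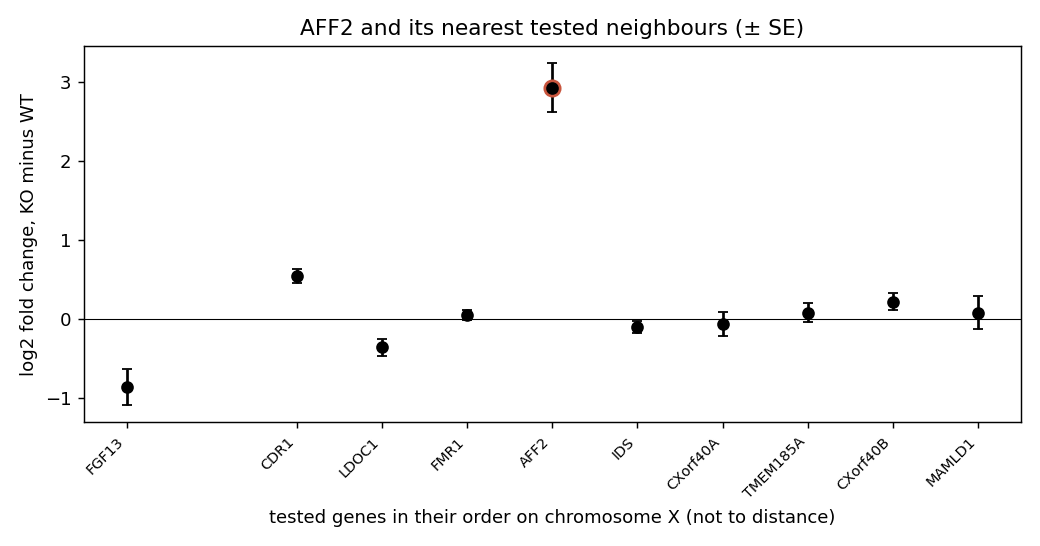
Log2 fold change with its standard error for AFF2 (red ring) and 9 of the 10 nearest tested genes, in their order on chromosome X and not drawn to distance. AFF2 is at 2.93, and its neighbours lie between -0.86 and 0.54.

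The 5 tested genes whose pattern over the 4 libraries was most like that of AFF2, by Euclidean distance of centred log2(CPM + 1) values, were DPYSL3 (distance 0.73), DOK6 (0.76), ZNF83 (0.90), ARMCX4 (0.90) and ZNF726 (0.92). Like AFF2 they were chosen on this comparison and are described without a test. DPYSL3, a cytoskeletal protein of growing axons, was at 8.08 and 12.8 CPM in WT and 39.7 and 38.4 CPM in KO libraries. DOK6, a docking protein of receptor tyrosine kinases, had 4 and 13 counts in WT and 62 and 62 in KO libraries. ZNF726 had 2 and 4 counts in WT and 35 and 35 in KO libraries, so its WT level lay at about the floor. DOK6 and ZNF726 would not have passed the filter on low counts by their WT libraries alone. ZNF83 was at 3.39 and 4.55 CPM in WT and 14.2 and 17.3 CPM in KO libraries. The log2 fold changes were 1.87 (DPYSL3), 2.62 (DOK6), 1.96 (ZNF83), 1.91 (ARMCX4) and 3.25 (ZNF726), beside 2.93 for AFF2. In ARMCX4 the WT libraries were uneven, at 1.43 and 3.91 CPM, while the KO libraries stood at 11.0 and 10.2 CPM.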

How the data were processed

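Whole-number read counts per gene symbol, deposited by the authors without normalization, were read for 4 libraries, 2 per genotype, with groups and replicate numbers from the sample labels. The methods of the paper describe alignment to GRCh38 (STAR, RSEM, GENCODE 46), limma-voom and 3 samples per genotype, while the submitters' processing notes name hg19. Which pipeline made the counts is not given in the sources used here. No genome position is therefore printed, and spans, gaps and lengths are those of GENCODE 44. A table of the authors' own comparison (mean counts, log2 fold changes, their errors and p-values) was not used.

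Counts were fitted in R 4.3.3 with edgeR 4.0.16 (TMM, glmQLFit, glmQLFTest) over the 13128 genes that reached 1 CPM in 2 or more libraries. P-values were adjusted by Benjamini and Hochberg over all of them, with a threshold of 0.05. The standard error is the log2 fold change divided by the square root of the F statistic. The code of the fit was checked on simulated counts with the same spread for all genes and changes larger than most reported here. That check does not bear on small changes. The alternatives used DESeq2 1.42.0, limma 3.58.1 (voom with quantile normalization), other scalings and filters, the replicate number as a block, and each library left out. In the last, the lone library of a genotype is assumed to vary like the other pair. The chi-square per degree of freedom over genes was 3.69 between the WT and 6.07 between the KO libraries, so that assumption is uncertain. Tables were made in Python 3.11.15 (NumPy 2.4.6, pandas 2.3.3, SciPy 1.17.1) and figures in matplotlib 3.10.9. RPKM are TMM-scaled CPM for every 1000 bases of the longest GENCODE 44 transcript.

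Of the count table's symbols, 17318 were matched to GENCODE 44 directly and 1206 through a RefSeq synonym. Genes were named by rule: the 8 genes of the group, the called genes of each list with up to 3 others by mean CPM, the 5 tested neighbours on each side of AFF2 and the 5 genes most like it. THUMPD1 and the cell type markers served as checks. CDK9, ELL3, CTR9, CDC73, LEO1, WDR61 and HSPA1A were named outside this rule. Some genes that the rule names are not reported here. The genes and lists were chosen with earlier results of these data known. None of the 8 overlaps another gene of the table, but 7 of them overlap a gene on the opposite strand in GENCODE 44, and whether counting used the strand is not given in the sources used here.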

Additional observations from a re-analysis of the deposited data

How the results depend on the processing

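AFF2 kept its direction under all alternatives, which is a description only, because it was chosen for its rise in these same libraries. Of the values recomputed for the group, the lists and the number of calls, 142 stayed. For a tested gene that means on its side of the threshold, and for a count within 1.5 times. AFF2 and its share of the AFF sum have no threshold, and there it means within the larger SD of the 2 genotypes. Another 19 counts moved more, 6 values lost a call, 1 gained one and 2 changed sign. There were 2748 genes called, but 1755 by DESeq2, 1594 where the adjusted p had to be under 0.01, and 1617 to 2599 after 1 library was left out. Of these calls 58.0% were lower, against 35.8% with library size alone, whose median over all genes was 0.09 and not 0.01. Under that scaling AFF1 (0.05), SUPT6H (0.01), MLLT10 (0.01), DUSP1 (0.01) and CXorf40A (0.03) changed sign, AFF4 was called (0.20) and MLLT1 was not (-0.14). With limma-voom AFF1 was at 0.02 and MLLT1 at -0.17, and with DESeq2 MLLT1 was at -0.23, neither of these MLLT1 values called. Without 1 library MLLT1 ran from -0.25 to -0.20, CCNT1 from -0.02 to 0.09, NARG2 from -0.01 to 0.26, SUPT6H from -0.15 to 0.01, IER2 from -0.01 to 0.12, DUSP1 from -0.36 to 0.23 and CXorf40A from -0.12 to 0.01. The list of P-TEFb and its 7SK control, with 1 call, had 0 calls with library size alone, upper quartile scaling, DESeq2 and limma-voom and 0 to 1 without 1 library. The other ELL partners had 1 call (ELL3) with at least 10 counts in every library, and the list of KMT2A, DOT1L and YEATS proteins 3 calls with library size alone and with limma-voom, against 5 as reported. Without 1 library that list had 1 to 4 calls, the pausing and elongation factors 2 to 8 and the rapidly induced genes 1 to 3. The cause was not tested. Of the values of single named genes outside the group, 378 stayed, 48 lost a call, 2 gained one and 12 changed sign. Low counts limit AFF2 in WT and ELL3, and 2 libraries per genotype limit all tests.

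Replicate numbers 1 and 2 occur in both genotypes, and the deviations of same-numbered libraries from their genotype means correlated at 0.0301 over 13128 genes. Whether same-numbered libraries shared a culture, preparation or run is not given in the labels and was not tested. With the replicate number as a block 3222 genes were called, and P-TEFb and its 7SK control had 2 calls. CCNK (-0.17) was then called lower, with an edgeR adjusted p of 0.0478.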
